A study of Mus musculus with 7 samples.

Results

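The genes described are 10 that carry or receive the signals of red cell formation: the transcription factors Klf1, Gata1, Zfpm1, Tal1, Lmo2, Nfe2 and Gfi1b and the surface receptors Epor, Tfrc and Kit. They were taken by name, 10 of the 56854 gene identifiers that all files shared, and all 10 passed the filter on low counts. The samples were whole shoulder joints of mice, dissected 2 weeks after the supraspinatus tendon of the left shoulder, part of the rotator cuff, had been surgically repaired. The 3 wild-type mice carried an intact Tnc gene, and the 4 Tnc-/- mice lacked Tenascin C, a glycoprotein of the extracellular matrix. All 7 mice had the repair, so no unoperated shoulder entered the comparison, and the labels state neither strain, age, sex nor how the Tnc allele was made. A whole joint holds tendon, muscle, cartilage and bone with its marrow, and from such bulk RNA a change in the number of cells of a type and a change in RNA per cell cannot be told apart.

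In the marrow, red cells arise from progenitors that carry Kit, the receptor for stem cell factor, and then come to depend on Epor, the receptor for erythropoietin. Gata1 and its cofactor Zfpm1 (also called Fog1), together with a DNA-bound complex that holds Tal1 and Lmo2, switch on the genes of the red cell programme, and Klf1 activates the adult globin genes and many membrane genes. Nfe2, one partner of a dimer with the small Maf proteins, and the repressor Gfi1b act in red cell precursors and in megakaryocytes, the source of platelets. Tfrc takes up iron bound to transferrin, and Kit is also carried by mast cells and melanocytes.

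Libraries held between 13.5 and 18.5 M gene counts (M, mega) in the wild type and between 19.3 and 28.2 M in Tnc-/-. The wild-type libraries, in the order 1 to 3 used throughout, held Tnc itself at 440, 326 and 371 CPM (gene counts divided by the library's total in M), and Tnc-/- libraries 1 to 4 held it at 32.0, 35.7, 37.0 and 50.2 CPM. Its log2 fold change was -3.08 (SE 0.21, adjusted p = 2.8e-04, edgeR), so every library stood on the side its label gives. Muscle, bone and tendon genes marked the tissue, with Tnmd, a tendon and ligament gene, between 169 and 330 CPM, while Scx, the tendon transcription factor, was at 0 in every library and lies inside the span of Bop1. Wild-type libraries 2 and 3 stood apart from the other 5. Receptor genes of smell and pheromone sensing, 1775 genes that a shoulder is not known to use, summed to 1454 and 1042 CPM there, against 86.2 CPM in wild-type library 1 and 32.9 to 41.3 CPM in Tnc-/-. Files of the 2 genotypes also list different identifiers, 126 in the wild type alone and 87 in Tnc-/- alone, and this difference in counting cannot be told apart from the genotype.

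The 250 bases upstream of the start site are shown for Klf1, Epor, Zfpm1 and Kit: 3 genes that moved together in the comparison that follows, and a receptor that did not pass the test there. The sequences are RefSeq's (GRCm38.p6), read 5′ to 3′ on the strand of the gene. Capitals mark GATA letters (AGATAA or AGATAG or TGATAA or TGATAG) and KLF letters (CCNCNCCC), searched on both strands, and overlapping KLF matches run into each other.
Klf1 (chr8:84901732-84901981, + strand): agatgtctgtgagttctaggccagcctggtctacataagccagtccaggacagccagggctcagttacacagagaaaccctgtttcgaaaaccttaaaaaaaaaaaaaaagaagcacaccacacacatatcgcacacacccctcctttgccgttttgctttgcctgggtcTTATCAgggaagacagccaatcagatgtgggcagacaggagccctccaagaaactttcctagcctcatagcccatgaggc
Epor (chr9:21963577-21963826, - strand): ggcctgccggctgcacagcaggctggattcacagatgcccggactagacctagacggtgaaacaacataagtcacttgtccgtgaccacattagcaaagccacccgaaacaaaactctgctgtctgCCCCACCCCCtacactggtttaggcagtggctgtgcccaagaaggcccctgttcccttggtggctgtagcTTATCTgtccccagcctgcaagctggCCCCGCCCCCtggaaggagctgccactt
Zfpm1 (chr8:122281891-122282140, + strand): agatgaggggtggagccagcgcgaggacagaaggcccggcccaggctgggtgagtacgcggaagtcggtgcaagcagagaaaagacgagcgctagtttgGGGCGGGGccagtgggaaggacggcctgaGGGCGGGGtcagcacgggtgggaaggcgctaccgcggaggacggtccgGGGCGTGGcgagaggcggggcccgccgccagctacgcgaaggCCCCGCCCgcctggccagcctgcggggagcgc
Kit (chr5:75574737-75574986, + strand): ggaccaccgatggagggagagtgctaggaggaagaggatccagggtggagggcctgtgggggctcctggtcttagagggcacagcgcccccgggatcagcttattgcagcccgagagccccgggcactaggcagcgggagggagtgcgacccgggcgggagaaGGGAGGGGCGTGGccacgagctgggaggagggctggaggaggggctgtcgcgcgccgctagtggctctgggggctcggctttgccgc

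Of the 10 genes, 8 had an upstream window, 11 windows in all, since Tfrc, Tal1 and Kit had more than 1. The 2 windows of Kit nearly coincide, so the same 2 KLF matches count in both, and those of Tfrc overlap at their ends. GATA letters lay in 4 of the 11 windows, of 4 genes: 80 bases before the start site of Klf1, 54 before that of Epor, 120 before that of Gfi1b and 205 before that of Tal1. Among all 32851 promoter windows of that length, 26.5% held them. KLF letters lay in 9 of the 11 windows, of 7 genes, all but Klf1, and in 45.9% of all windows. Epor and Gfi1b held both in 1 window, as did 8.19% of all windows. The core letters of an NF-E2 site (TGAGTCA or TGACTCA), found in 4.46% of all windows, were in none of the 11. An E-box (CANNTG), the kind of site that Tal1 dimers bind, lay in 5 of the 11 windows and in 66.2% of all. In the windows shown, Epor held 1 GATA match and 4 KLF matches that overlap in pairs, Zfpm1 held 4 KLF matches and no GATA match, and Kit held 2 KLF matches. Zfpm1 and Epor, the genes with the highest fold changes, differed in GATA letters. These matches describe letters in short windows and show no binding.

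Of the 10 genes, 7 were higher in the repaired shoulders of Tnc-/- mice and none was lower: Zfpm1, Epor, Klf1, Nfe2, Tal1, Gfi1b and Gata1, with log2 fold changes from 0.90 to 1.84. Tfrc, Lmo2 and Kit did not pass the test. The test was edgeR's quasi-likelihood test with Benjamini-Hochberg adjustment over all 17791 tested genes and a threshold of 0.05; at an unadjusted p under 0.05 stood 8 of the 10 genes. Among all tested genes 29.0% passed in either direction, 10.3% higher and 18.7% lower in Tnc-/-. The median log2 fold change was 1.27 over the 10 genes and -9.0e-04 over all tested genes. The same 7 genes had every Tnc-/- library above every wild-type library in CPM, a pattern that 10.4% of all tested genes showed, and none of the 10 had every Tnc-/- library below, as 24.1% of all tested genes did. CPM here are scaled by library totals, and fold changes by edgeR's TMM factors, which lie between 1.01 and 1.15 in the wild type and between 0.914 and 0.960 in Tnc-/-, so that a fold change is larger than the ratio of the CPM means.

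**Figure D1:**
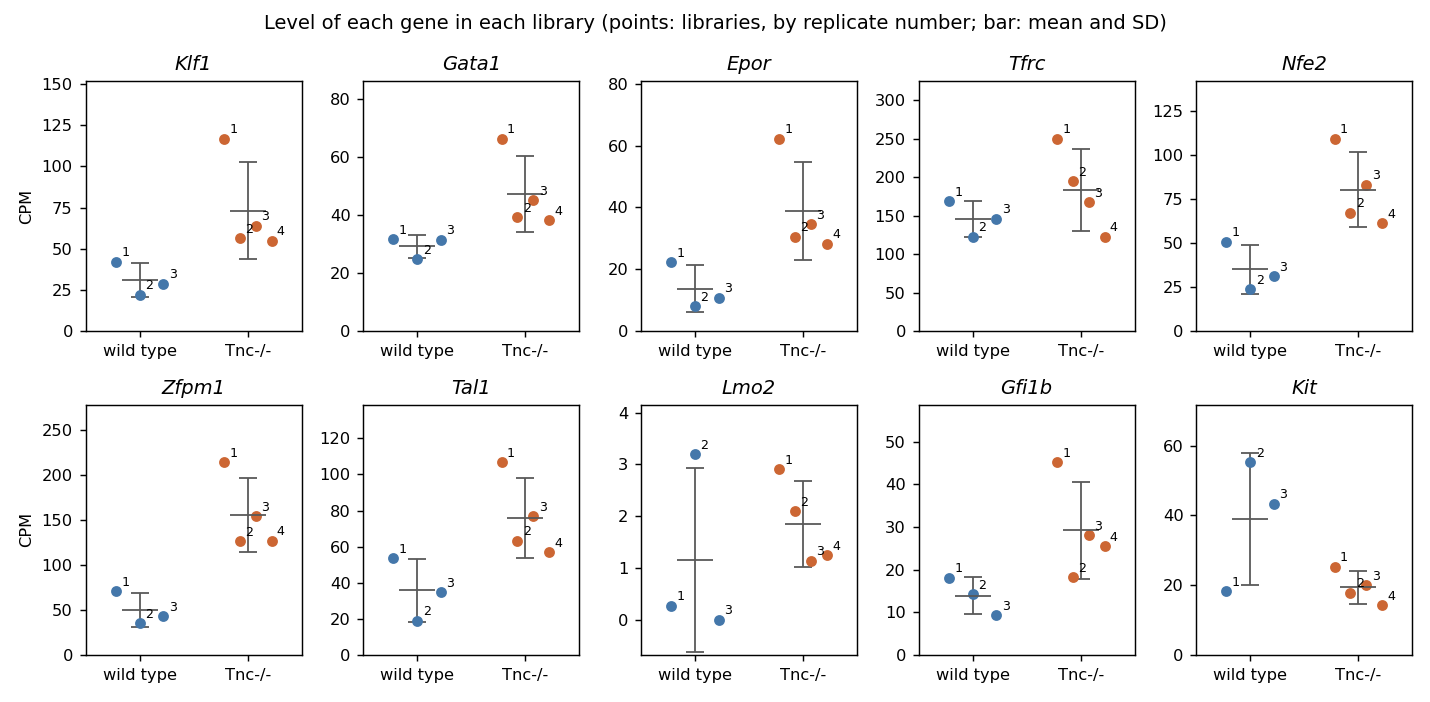
Level of each of the 10 genes in CPM (linear axis) in each library, numbered by replicate, with the mean and SD of 3 wild-type and 4 Tnc-/- libraries. For 7 genes all Tnc-/- points lie above all wild-type points, Tnc-/- library 1 is the highest of the 4 for all 10 genes, and Kit is high in wild-type libraries 2 and 3 alone.

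Among the DNA-bound factors, Klf1 (ENSMUSG00000054191, chromosome 8), the globin activator, had 42.0, 22.1 and 28.8 CPM in the wild type and 116.7, 56.4, 64.1 and 55.0 CPM in Tnc-/-. The groups did not overlap, and Tnc-/- library 1 stood far above the other 3. The log2 fold change was 1.43 (SE 0.33, adjusted p = 0.0151, edgeR). Gata1 (ENSMUSG00000031162, chromosome X), the master regulator of red cell and megakaryocyte genes, was at 31.7, 24.7 and 31.6 CPM in the wild type and at 66.4, 39.4, 45.1 and 38.3 CPM in Tnc-/-. It showed the smallest fold change of the 7, 0.90 (SE 0.22, adjusted p = 0.0170, edgeR). Every Tnc-/- library of Gata1 lay above the wild type, where libraries 1 and 3 were nearly level.

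Zfpm1 (ENSMUSG00000049577, chromosome 8), the cofactor that binds Gata1 and not DNA, changed the most. It was at 70.8, 35.0 and 43.3 CPM in the wild type and at 214.0, 126.3, 154.5 and 126.9 CPM in Tnc-/-. The lowest Tnc-/- library was 1.78 times the highest wild-type library, the widest gap among the 10 genes. The log2 fold change was 1.84 (SE 0.31, adjusted p = 0.00716, edgeR). Tal1 (ENSMUSG00000028717, chromosome 4), a basic helix-loop-helix factor needed to make blood cells, was at 53.7, 18.9 and 34.8 CPM in the wild type and at 106.6, 63.2, 76.8 and 57.0 CPM in Tnc-/-. Wild-type library 1 came within 1.06 times of the lowest Tnc-/- library. The log2 fold change of Tal1 was 1.27 (SE 0.37, adjusted p = 0.0325, edgeR).

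Lmo2 (ENSMUSG00000032698, chromosome 2), the bridging protein of the Tal1 complex, had only 5, 43 and 0 counts in the wild type and 82, 41, 22 and 26 counts in Tnc-/-. Its groups overlapped, and the log2 fold change of 0.94 (SE 1.17) did not pass the test (adjusted p = 0.577, edgeR). These counts cannot be read as the level of the gene. In the GENCODE M21 annotation 62.5% of the Lmo2 span and 95.5% of its exonic bases lie inside the span of 4931422A03Rik on the opposite strand, although no exons overlap. In these files, of 561 protein-coding genes that lie wholly inside the span of other genes and share no exonic base with them, 555 were at 0 in every library, 98.9%, against 16.8% of the genes with no other gene over their span. The other 9 genes have 0% of their span inside another gene.

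Nfe2 (ENSMUSG00000058794, chromosome 15), a basic leucine zipper factor of red cells and platelets, was at 50.6, 23.8 and 31.0 CPM in the wild type and at 109.1, 67.3, 83.1 and 61.3 CPM in Tnc-/-. Every Tnc-/- library lay above the wild type, and the log2 fold change was 1.38 (SE 0.31, adjusted p = 0.0135, edgeR). Gfi1b (ENSMUSG00000026815, chromosome 2), a zinc finger repressor that limits proliferation of the same precursors, was at 18.1, 14.2 and 9.36 CPM in the wild type and at 45.2, 18.2, 28.2 and 25.5 CPM in Tnc-/-. The groups of Gfi1b only just did not meet, the lowest Tnc-/- library being 1.01 times the highest wild-type library. Its log2 fold change was 1.27 (SE 0.35, adjusted p = 0.0267, edgeR).

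Of the 3 receptors, only Epor passed the test. Epor (ENSMUSG00000006235, chromosome 9), which keeps late progenitors alive, was at 22.3, 8.10 and 10.9 CPM in the wild type and at 62.2, 30.5, 34.5 and 28.3 CPM in Tnc-/-. Wild-type library 1 was well above the other 2, as Tnc-/- library 1 was above the other 3, yet the groups did not overlap. Its log2 fold change was 1.67 (SE 0.43, adjusted p = 0.0209, edgeR). Tfrc (ENSMUSG00000022797, chromosome 16), the transferrin receptor of nearly all dividing cells, was at 168.7, 122.5 and 146.1 CPM in the wild type and at 249.9, 194.5, 167.2 and 122.6 CPM in Tnc-/-. Tnc-/- libraries 3 and 4 fell within the wild-type range. The log2 fold change of Tfrc was 0.54 (SE 0.24) and did not pass the test (adjusted p = 0.122, edgeR).

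Kit (ENSMUSG00000005672, chromosome 5) was at 18.3, 55.2 and 43.4 CPM in the wild type and at 25.3, 17.9, 19.9 and 14.2 CPM in Tnc-/-. Wild-type library 1 lay inside the Tnc-/- range, and wild-type libraries 2 and 3, those with the high smell receptor counts, lay above every other library. The log2 fold change was -0.76 (SE 0.32) and did not pass the test (adjusted p = 0.104, edgeR). With the smell receptor level of each library as a covariate it turned to 0.64 (SE 0.32, adjusted p = 0.311, edgeR). Without wild-type libraries 2 and 3 it was 0.19 (SE 0.26). The smell receptor level was higher in every wild-type library than in any Tnc-/- library, so the covariate cannot be fully separated from the genotype. Kit has the longest span of the 10 genes, 81.8 kb. Smell receptor genes held 0.108 and 0.0776 CPM per kb of span in wild-type libraries 2 and 3, which over the span of Kit comes to 8.86 and 6.35 CPM, against 0.525 CPM in wild-type library 1 and 0.200 to 0.252 CPM in Tnc-/-. What part of the Kit counts this makes up was not tested.

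**Figure D2:**
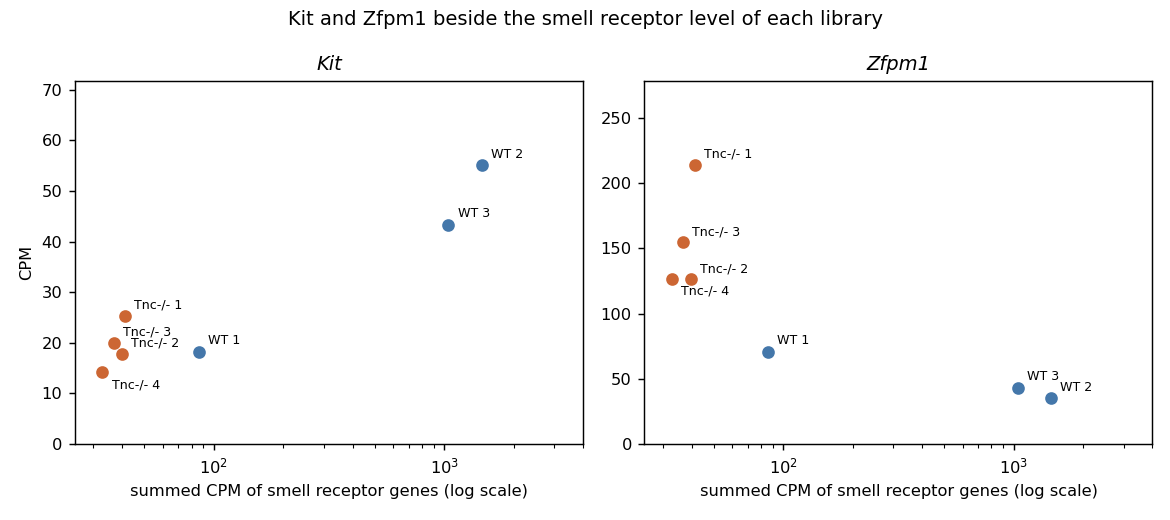
CPM of Kit (left) and Zfpm1 (right) on linear axes against the summed CPM of smell receptor genes (log axis), 1 point per library. Wild-type libraries 2 and 3, at 1454 and 1042 CPM of smell receptor genes, hold the highest Kit and the lowest Zfpm1 levels, and wild-type library 1 lies with Tnc-/- for Kit and below it for Zfpm1.

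Divided by exon length, in CPM per exonic kb, the levels in Tnc-/- ran from Klf1 at 47.7 ± 19.2 (SD, n = 4) and Zfpm1 at 44.4 ± 11.8 through Tfrc at 29.7 ± 8.61 and Nfe2 at 26.8 ± 7.14 to Epor, Gata1, Tal1 and Gfi1b, between 16.0 and 19.6. Kit, at 2.17 ± 0.52, came last of the 9 genes other than Lmo2, whose counts, at 0.853 ± 0.382, cannot be ranked as a level of that gene. Within the upper 8, neighbours in this order differed by less than the larger of their SDs, except Zfpm1 and Tfrc. In the wild type the order began with Tfrc at 23.6 ± 3.74 (SD, n = 3), then Klf1 at 20.3 ± 6.63 and Zfpm1 at 14.2 ± 5.35, and Epor, at 6.92 ± 3.79, stood below Gata1 at 12.03 ± 1.63. Exons were taken from GENCODE M21, and counts taken over whole gene spans would include intron reads.

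The 7 genes that passed varied together from library to library. Pearson correlations of log2(CPM + 1) over the 7 libraries ran from 0.804 to 0.994 over their 21 pairs, with a median of 0.95. Tfrc had correlations of 0.582 to 0.797 with them, and Kit of -0.732 to -0.262 with the 8 genes other than Lmo2. These points share the genotype difference and the depth of each library and are given as a description. Within genotypes the same order showed: Tnc-/- library 1 was the highest of 4 for all 10 genes and wild-type library 1 the highest of 3 for 8, all but Lmo2 and Kit. On the log2 scale Tnc-/- library 1 lay above the mean of the other 3 by 0.63 (Nfe2) to 0.999 (Epor) in the 7 genes. Wild-type library 1 lay above the other 2 by 0.17 for Gata1 and by 1.24 for Epor.

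The calls depended on which libraries entered. Without Tnc-/- library 1, Klf1, Gata1, Nfe2 and Zfpm1 were still called higher, when 4.82% of all genes were, and the same 4 without Tnc-/- library 3, when 3.91% were. Leaving out Tnc-/- library 2 gave 6 called higher (1007 of 17560 tested genes higher). Leaving out Tnc-/- library 4 gave 5 (903 of 17580). Without wild-type library 2 the calls were Nfe2 and Zfpm1 (5.54% of all genes higher), and without wild-type library 3 Zfpm1 alone (3.27%). Without wild-type library 1 there were 8 called higher, now with Tfrc (log2 fold change 0.81, SE 0.22, adjusted p = 0.00572, edgeR), and Kit was called lower (-0.98, SE 0.20, adjusted p = 8.4e-04, edgeR); 24.3% of all genes were then higher and 39.9% lower.

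Against the lone wild-type library without high smell receptor counts, with libraries 2 and 3 left out, Zfpm1 was called higher at 1.24 (SE 0.27, adjusted p = 0.0310, edgeR) and none of the other 9 genes passed, when 2.53% of all genes were called higher. That fit takes the lone library to vary as Tnc-/- libraries do. All 7 genes kept positive values there, from 0.60 for Tal1 to 1.24. With the smell receptor level as a covariate none of the 10 genes was called, and 1.07% of all genes were called higher. That level was higher in every wild-type library than in any Tnc-/- library. This fit therefore cannot fully separate it from the genotype, and calls lost in it, here and in the lists below, cannot be assigned to either. Zfpm1 then stood at 0.96 (SE 0.34, adjusted p = 0.154, edgeR) and Tal1 at 0.24 (SE 0.41, adjusted p = 0.803, edgeR). With limma voom in place of edgeR, Nfe2 and Zfpm1 were called, with adjusted p = 0.0436 and 0.0237, and 4.09% of all genes were called higher.

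**Figure D3:**
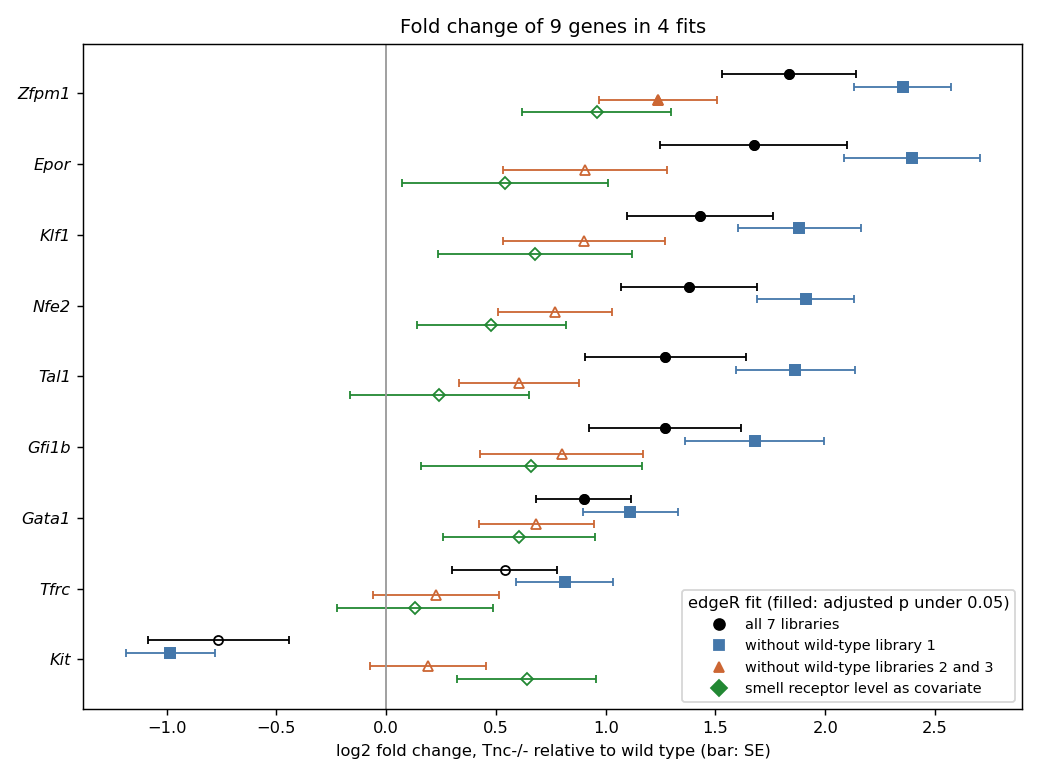
Log2 fold change of 9 genes (all but Lmo2), Tnc-/- relative to wild type, with its SE, in 4 edgeR fits; filled symbols have an adjusted p under 0.05. Zfpm1 is called in 3 of the 4 fits, 7 other genes lie above 0 in all 4 with smaller values once wild-type libraries 2 and 3 are left out or the smell receptor level is a covariate, and Kit changes sign.

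The partner proteins of these factors form a list of 24 genes, 23 of them tested, of which 11 were higher, 2 lower and 10 not called, with a median log2 fold change of 0.58. Zbtb7a, a repressor of fetal globin, was at 49.2 to 63.5 CPM in the wild type and 100.5 to 132.3 CPM in Tnc-/- (log2 fold change 1.28, SE 0.15, adjusted p = 0.00551, edgeR). Cbfa2t3, a corepressor that joins the Tal1 complex, rose by 1.22 (SE 0.21, adjusted p = 0.00738, edgeR) and Mafk, a small Maf partner of Nfe2, by 0.95 (SE 0.17, adjusted p = 0.00766, edgeR). Ldb1, which links Lmo2 to other bound complexes, and Tcf3, a dimer partner of Tal1, were among the 11, at 0.86 (SE 0.18) and 1.06 (SE 0.27). Tcf12, another dimer partner of Tal1, was lower in every Tnc-/- library, at 65.9 to 74.8 CPM against 96.5 to 136.8 CPM (-0.49, SE 0.12, adjusted p = 0.0183, edgeR). Ssbp2, which stabilises Ldb1, was also lower, at 32.8, 89.3 and 50.2 CPM in the wild type and 23.4 to 27.5 CPM in Tnc-/- (-0.91, SE 0.27, adjusted p = 0.0355, edgeR), and like Kit it was highest in wild-type libraries 2 and 3. Myb and Gata2, factors of earlier progenitors, were at 0.69 (SE 0.30) and 0.58 (SE 0.30) and did not pass the test (adjusted p = 0.109 and 0.173, edgeR). Chd4, of the NuRD complex that Zfpm1 recruits, had groups that overlapped and was among the 11, at 0.54 (SE 0.18, adjusted p = 0.0488, edgeR). Lyl1, a relative of Tal1, was at 0 in every library and lies inside Nfix. Ldb1, Tcf3, Tcf12, Myb and Gata2 were named after their values were seen. The 13 calls of this list became 1 with the smell receptor covariate and 3 with wild-type libraries 2 and 3 left out. With 1 library left out they moved by over 1.5 times in every case, to 4 without wild-type library 3, 6 to 8 without wild-type library 2 or a Tnc-/- library, and 20 without wild-type library 1.

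Among 19 listed genes of Epor and Kit signalling, ligands included, 6 were higher, 2 lower, both of them ligands, and 11 not called, with a median log2 fold change of 0.37. The 6 were Stat5a and Stat5b, the transcription factors that Epor activates, Sh2b3, Ptpn6, Grb2 and Bcl2l1. Sh2b3, an adaptor that damps Epor and Kit signals, changed from 38.5 ± 7.94 CPM (SD, n = 3) to 59.0 ± 7.80 CPM (SD, n = 4), by 0.82 (SE 0.19, adjusted p = 0.0150, edgeR). Grb2, an adaptor to Ras, changed by 0.60 (SE 0.15, adjusted p = 0.0179, edgeR). Ptpn11, a phosphatase of many growth receptors, was at 0.10 (SE 0.13) and did not pass the test. Kitl, the ligand of Kit, was lower in every Tnc-/- library, at 26.7 to 37.2 CPM against 48.9 to 60.1 CPM (-0.49, SE 0.16, adjusted p = 0.0448, edgeR); it was named after its values were seen. Epo, the ligand of Epor, was at 0.865, 26.3 and 13.1 CPM in the wild type and 0.319 to 1.02 CPM in Tnc-/- (-3.82, SE 0.93, adjusted p = 0.0178, edgeR). Wild-type library 1 lay inside the Tnc-/- range, so that the difference rested on wild-type libraries 2 and 3, and 47.4% of the Epo span lies inside the spans of other genes of the annotation. None of the 8 calls of this list was left with the smell receptor covariate, nor without wild-type library 3, Tnc-/- library 1 or Tnc-/- library 3. There was 1 with wild-type libraries 2 and 3 left out, 4 without wild-type library 2, Tnc-/- library 2 or Tnc-/- library 4, and 11 without wild-type library 1.

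Of 16 genes of the transferrin iron cycle, 2 were higher, none lower and 14 not called, with a median of 0.26. Among all tested genes 10.3% were higher and 18.7% lower. The 2 were Slc25a28, a mitochondrial iron importer of many tissues (0.70, SE 0.14, adjusted p = 0.0100, edgeR), and Abcb10, a mitochondrial transporter of red cell precursors (0.86, SE 0.23, adjusted p = 0.0246, edgeR). Tfr2, a second transferrin receptor that pairs with Epor, was at 8.39 to 12.4 CPM in the wild type and 11.9 to 21.9 CPM in Tnc-/- and did not pass the test (adjusted p = 0.0612, edgeR). Fth1, the ferritin heavy chain, was at 1148 ± 165 CPM (SD, n = 3) and 1199 ± 41.0 CPM (SD, n = 4). The 2 calls became 0 with the covariate and with wild-type libraries 2 and 3 left out, 9 without wild-type library 1, and 1 or 2 without any other library.

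Red cell genes listed as targets of Gata1 and Klf1 were also mostly higher: 15 of 22 tested were higher and none lower, with a median of 1.19. Whether the factors drove these genes was not tested, and lists of other marrow cells, given below, rose as well. Ank1 and Sptb, which encode the ankyrin and spectrin of the red cell membrane skeleton, changed by 1.76 (SE 0.24, adjusted p = 0.00670, edgeR) and 1.52 (SE 0.24, adjusted p = 0.00680, edgeR). Hbb-bs, an adult beta globin gene, was at 3923, 2434 and 3004 CPM in the wild type and 12993, 6924, 7323 and 6079 CPM in Tnc-/- (1.61, SE 0.33, adjusted p = 0.0103, edgeR). The globin copies are near-identical, and counts may be split between them. Alas2, inside Apex2, and Icam4 were at 0 in every library, and Ahsp had no identifier. With the smell receptor covariate 0 of the 22 were called, and with wild-type libraries 2 and 3 left out 2. With 1 library left out, 2 were called without wild-type library 3, 4 without wild-type library 2, 5 without Tnc-/- library 1 or 3, 9 without Tnc-/- library 2, 11 without Tnc-/- library 4 and 21 without wild-type library 1.

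Each gene was also set against the mean log2(CPM + 1) of these 22 red cell genes in the same library, which asks whether a regulator moved beyond the red cell genes as a whole. That mean was 5.92 to 6.75 in the wild type and 6.91 to 7.89 in Tnc-/-. Relative to it, Zfpm1 stood at -0.73 ± 0.14 (SD, n = 3) in the wild type and at -0.02 ± 0.10 (SD, n = 4) in Tnc-/-. Epor stood at -2.57 ± 0.31 and -2.03 ± 0.09, and Klf1 at -1.38 ± 0.05 and -1.14 ± 0.11. For these 3 genes every Tnc-/- library lay above every wild-type library. Tfrc went the other way, from 0.85 ± 0.19 to 0.20 ± 0.25, as did Kit, from -1.15 ± 1.21 to -2.96 ± 0.16, again with no overlap. Gata1, Nfe2, Tal1, Gfi1b and Lmo2 overlapped between the groups. Relative to 13 granulocyte genes, Zfpm1 and Epor were higher in every Tnc-/- library, Kit was lower and the other 7 overlapped. Relative to 14 megakaryocyte genes, Klf1, Epor, Nfe2 and Zfpm1 were higher in every Tnc-/- library and the other 6, Kit among them, overlapped. These differences are given with no test, and how many of all genes show such patterns was not counted. The red cell and granulocyte means were themselves higher in every Tnc-/- library. A gene that stays level in CPM therefore falls relative to them, and Tfrc and Kit overlapped between the groups in CPM.

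**Figure D4:**
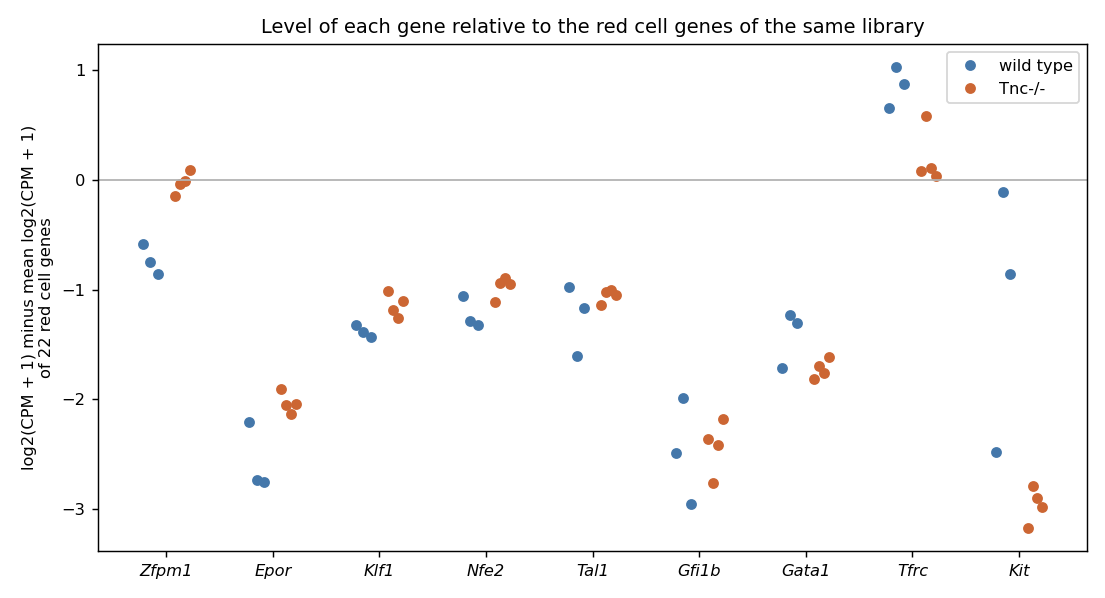
Level of 9 genes (all but Lmo2) as log2(CPM + 1) minus the mean log2(CPM + 1) of 22 red cell genes in the same library, 1 point per library, wild type in blue and Tnc-/- in orange. Zfpm1, Epor and Klf1 lie higher in all Tnc-/- libraries, Tfrc and Kit lower, and the other 4 overlap. The subtracted mean is itself higher in every Tnc-/- library.

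Markers of other marrow cells moved as well. Of 13 granulocyte genes 9 were higher and none lower, with a median log2 fold change of 1.13, among them Cebpe, a granulocyte transcription factor (1.66, SE 0.32, adjusted p = 0.00896, edgeR), and Camp, a secreted granule peptide (1.41, SE 0.28, adjusted p = 0.00946, edgeR). S100a9, a calcium-binding protein of neutrophils, was at 1110 ± 361 CPM (SD, n = 3) and 2257 ± 580 CPM (SD, n = 4), while Elane, an early granule protease, overlapped between the groups, at 104.0 to 235 and 174 to 347 CPM. Their summed level was 3414 to 6469 CPM in the wild type and 6541 to 11574 CPM in Tnc-/-. Of 13 megakaryocyte genes 7 were higher, with a median of 0.89 and summed levels of 427 to 773 and 730 to 1307 CPM. Itga2b, the platelet fibrinogen receptor and a Gata1 target, changed by 1.36 (SE 0.30, adjusted p = 0.0131, edgeR), and Pf4, a platelet chemokine, by 0.83 (SE 0.19, adjusted p = 0.0138, edgeR). Treml1 changed by 1.31 (SE 0.33, adjusted p = 0.0193, edgeR), while Ppbp, the most abundant of the list, was at 1.03 (SE 0.34) and did not pass the test (adjusted p = 0.0508, edgeR). Rab27b was at -0.46 (SE 0.15) and did not pass the test (adjusted p = 0.0501, edgeR). Of 15 cell cycle genes 8 were higher and none lower, with a median of 1.02, among them Cdc20 (1.07, SE 0.22, adjusted p = 0.0108, edgeR) and Plk1 (1.33, SE 0.28, adjusted p = 0.0113, edgeR), which drive cells through mitosis, and Mcm2 (1.03, SE 0.25, adjusted p = 0.0183, edgeR), a licensing factor of DNA replication. Mki67 was at 81.8 to 204 and 214 to 440 CPM, and Birc5 was at 0.50 (SE 0.17) and did not pass the test. With the smell receptor covariate none of the 9 granulocyte, 7 megakaryocyte and 8 cell cycle calls was left, and with wild-type libraries 2 and 3 left out 1 granulocyte call was. Without wild-type library 3 there were 2, 0 and 0 calls in these lists, without wild-type library 2 there were 2, 2 and 3, and without Tnc-/- library 1 also 2, 2 and 3. Without Tnc-/- library 2 there were 8, 7 and 4, without Tnc-/- library 3 there were 2, 3 and 2, without Tnc-/- library 4 there were 5, 2 and 3, and without wild-type library 1 there were 13, 13 and 14. What part these cells or dividing cells play in the levels of the 10 genes was not tested.

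Mast cells, early progenitors and melanocytes also carry Kit. The calls in their lists stand beside 10.3% higher and 18.7% lower among all tested genes. Of 9 tested mast cell genes 1 was higher, Hdc, the histamine-forming enzyme (1.21, SE 0.19, adjusted p = 0.00680, edgeR), which other myeloid cells also express, and the summed level was 47.0 to 57.1 CPM in the wild type and 59.9 to 77.9 CPM in Tnc-/-. Without Hdc, a choice made after its values were seen, the sums overlapped, at 33.7 to 42.1 CPM and 33.3 to 41.5 CPM. Mcpt4, a protease of connective tissue mast cells, was at 3.56 to 7.19 and 7.59 to 8.76 CPM and did not pass the test, nor did Mrgprb1, at 0.162, 6.68 and 5.85 CPM in the wild type and 0.213 to 1.40 CPM in Tnc-/-. Among 8 stem and progenitor genes only Meis1 passed, at 9.73, 52.1 and 38.3 CPM in the wild type and 7.27 to 8.73 CPM in Tnc-/- (-1.78, SE 0.43, adjusted p = 0.0177, edgeR). It had the library pattern of Kit, high in wild-type libraries 2 and 3, as had Mecom, at 20.8, 111.4 and 77.8 CPM against 20.01 to 31.8 CPM. Mecom did not pass the test (adjusted p = 0.0730, edgeR). Of 4 tested melanocyte genes 1 was lower, Mlana, at 1.08, 6.68 and 5.64 CPM against 0.307 to 1.19 CPM (-2.52, SE 0.73, adjusted p = 0.0328, edgeR), again high in wild-type libraries 2 and 3. Mitf, the melanocyte master regulator that mast cells also use, was at -0.31 (SE 0.22) and Pmel at -0.66 (SE 0.57), and neither passed the test. With the covariate these 3 lists had no call, and with wild-type libraries 2 and 3 left out 1, in the mast cell list. Without wild-type library 1 they had 5, 5 and 3 calls. Without any other library the mast cell list had 1 call, while the stem cell and melanocyte lists each had 0 or 1.

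Of 13 endothelial genes, a lineage that shares Tal1 and Lmo2 early in development, 1 was higher, Egfl7 (1.14, SE 0.34, adjusted p = 0.0355, edgeR), 49.5% of whose span lies inside other genes, and 2 were lower. Among all tested genes 10.3% were higher and 18.7% lower, and the calls of this paragraph stand beside those shares. Tek, an angiopoietin receptor, was at 57.3, 74.2 and 79.9 CPM in the wild type and 28.2 to 34.1 CPM in Tnc-/- (-0.95, SE 0.14, adjusted p = 0.00670, edgeR), and Emcn was also lower (-0.84, SE 0.20, adjusted p = 0.0173, edgeR). Pecam1 was at 227 ± 15.7 CPM (SD, n = 3) and 176 ± 11.6 CPM (SD, n = 4), with a log2 fold change of -0.14 (SE 0.13) that did not pass the test. Of 12 tested muscle, bone, cartilage and tendon genes 2 were higher, Myh4, a fast muscle myosin (1.18, SE 0.22, adjusted p = 0.00856, edgeR), and Bglap, osteocalcin (0.55, SE 0.17, adjusted p = 0.0374, edgeR). Tnnt3, a fast muscle troponin, was at 0.78 (SE 0.26, adjusted p = 0.0516, edgeR), Dcn, a matrix proteoglycan, at -0.44 (SE 0.18, adjusted p = 0.102, edgeR) and Col1a1 at 0.27 (SE 0.30, adjusted p = 0.542, edgeR), and none of the 3 passed the test. The summed levels of the list overlapped between the groups, from 32870 to 42605 CPM in the wild type and from 36175 to 45938 CPM in Tnc-/-. The 3 endothelial and 2 tissue calls became 0 and 0 with the covariate, 2 and 0 with wild-type libraries 2 and 3 left out, 8 and 4 without wild-type library 1, and 1 or 2 in each list without any other library.

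For each gene, the 2 others most like it (1 for Nfe2) were taken by the Pearson correlation of log2(CPM + 1) over the 7 libraries, among 12393 candidate genes. Klf1 was most like Fcho1 (r = 0.994) and Hba-a1 (0.993), an alpha globin gene, and Tal1 most like Apol11b (0.997) and Trim10 (0.996), a red cell gene. The nearest to Gata1 were Nup210 and Dlgap5, to Zfpm1 Pola2 and Arhgap27, to Epor Pidd1 and Mau2, and to Gfi1b Ap1b1 and Ube2s, with correlations of 0.989 to 0.997. Nfe2 had a correlation of 0.996 with Traf3ip3. Tfrc had less close neighbours, Eloc (0.954) and Pxmp4 (0.950). Kit was most like Mtarc1 (0.997) and Mppe1 (0.996), both high in wild-type libraries 2 and 3, and Lmo2 most like Tusc1 (0.986) and Hpcal1 (0.964). The 7 points share the genotype difference and the depth of the libraries.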

How the data were processed

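Each library's deposited file gives unnormalised read counts of genes. Per the submitters' processing notes the reads were handled with FastQC 0.11.9, HISAT2 2.2.1, HTSeq 2.0.2 and DESeq2 1.38.3 on GRCm39 (mm39). The annotation and strand setting are not given in the sources used here, so gene positions are given by chromosome alone and coordinates for RefSeq's GRCm38.p6 upstream windows alone. Per the labels' protocols, poly(A) RNA was made into NEBNext Ultra libraries.

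Rows naming no gene, 30.1 to 32.7% of the Tnc-/- files and 0% of the wild-type files, were left out. Counts of all identifiers shared by the files entered edgeR 4.0.16 under R 4.3.3 (filterByExpr, TMM, robust quasi-likelihood F test, genotype as the only term, Benjamini-Hochberg threshold 0.05), and the SE is the log2 fold change over the square root of F. The fit was checked on simulated data. DESeq2 1.42.0 and limma 3.58.1 served as alternatives, as did other scalings, filters, a replicate block, a smell receptor covariate (log2 of the summed CPM) and fits with libraries left out. Libraries of a group differed beyond counting noise. Series notes place 1 repair on each of the 7 mice, and p-values measure the spread between these libraries.

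The 10 genes, the gene lists and the tests were chosen with earlier results of these data known. Named from each list were the 3 genes with the smallest p and the 1 with the lowest fold change, and the gene with the highest level, which the rule as written asked of marker lists and which was taken from every list. The 2 genes most alike to each gene needed a mean of at least 5 CPM. A few genes that these rules name are not reported here. Gene spans, exons and overlaps come from GENCODE M21 (GRCm38), which held 91.4% of the identifiers. Protein sequences were not used here.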

Additional observations from a re-analysis of the deposited data

Results flagged for a closer look

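Klf1 in Tnc-/- library 1 stood far from the other 3 Tnc-/- libraries, at 116.7 CPM against 55.0 to 64.1 CPM. Its distance from the next library made up 0.853 of the range of the 4, past the limit of Dixon's test at the 95% level. Dixon's test was run on 24 values, marked this 1, and marks about 1 in 20 by chance. Without this library Klf1 was still called higher, with a log2 fold change of 1.11 (SE 0.27, adjusted p = 0.0363, edgeR). The wild-type libraries lay between 22.1 and 42.0 CPM. What sets this library apart was not tested.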

How the results depend on the processing

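Over the 20 alternatives the number of the 10 genes called stayed within 1.5 times of 7 in 11. It was 7 with DESeq2, upper-quartile scaling, scaling by library totals or by DESeq2 size factors, no filter, a minimum of 10 counts in every library and, chosen after seeing the data, genes with at most 10% of their span inside other genes. It was 1 with DESeq2 and Bonferroni adjustment (Zfpm1), 2 with limma voom, 2 of the 2 that span at most 10 kb (Klf1 and Epor), 0 with the smell receptor covariate and 1 with wild-type libraries 2 and 3 left out, and 1 to 9 with 1 library left out. Over all genes, 5159 calls became 1653 with DESeq2 and Bonferroni adjustment together (DESeq2 alone gave 6249), 1004 with limma voom, 629 among genes of at most 10 kb, 399 with the covariate, 825 with wild-type libraries 2 and 3 left out and 2229 to 14113 with 1 library left out, the highest without wild-type library 1. Of 17791 tested genes, those called higher were 1830 with edgeR and TMM, 2180 with DESeq2 and 279 with Bonferroni adjustment added. They were 1349 with upper-quartile scaling, 951 with library totals and 1568 with DESeq2 size factors. No filter gave 2109 of 29121, at least 10 counts in every library 1414 of 14223, and genes of at most 10 kb 206 of 4662. Genes with at most 10% of their span inside other genes gave 1604 of 14452. Kit was reversed with the covariate (0.64) and with wild-type libraries 2 and 3 left out (0.19).

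Zfpm1 was called in 18 of 19 alternatives, Nfe2 in 15 of 19, Klf1 in 14 of 20, Gata1 in 13 of 19, Epor in 12 of 20, Gfi1b in 10 of 19 and Tal1 in 9 of 19, all with positive values. Tal1 was called in 1 of the 7 fits that leave out 1 library. Tfrc and Kit were each called once, without wild-type library 1, and Lmo2 in none of 17. Scaling by library totals moved the median of all genes from -9.0e-04 to -0.24 and the share of calls that were lower from 64.5% to 82.7%, and limma voom gave 27.5%; the same 7 genes were called higher under library totals, with Klf1 at 1.22 and Gata1 at 0.67.

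With the replicate block the same 7 genes were called, Klf1 at 1.54 and Zfpm1 at 1.97. Calls over all 17791 tested genes fell to 1932, 882 of them higher. Same-numbered libraries did not deviate together (correlations of -0.03, 0.07 and -0.01), so the numbers are not a pairing. The cause of these dependences was not tested. Lmo2 had at most 82 counts in a library and an SE of 1.17.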
